A study of Mus musculus with 12 samples.

Results

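ND13, a fusion of the nucleoporin NUP98 with the homeodomain protein HOXD13, was compared with ND13(N51S), the same fusion carrying the homeodomain change N51S. Of the 12 arrays of the series 6 belonged to this comparison, namely the 3 labelled ND13 and the 3 labelled ND13(N51S), and they were chosen by their labels alone. The comparison asks which differences in gene expression went with a homeodomain able to bind DNA, since the study describes the mutant as one that does not bind it.

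NUP98-HOX fusions arise by translocation in acute myeloid leukemia. They join the repeat-rich amino-terminal part of a nuclear pore protein, which can recruit coactivators such as CBP and p300, to the homeodomain of a HOX protein. The asparagine changed here is conserved in homeodomains and contacts an adenine in the DNA major groove, and HOX proteins often bind DNA together with the TALE homeodomain proteins PBX and MEIS. In normal marrow the HoxA genes and Meis1 are expressed in stem and progenitor cells and are switched off as the cells mature.

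All groups were sorted Sca-1+, Lin-, GFP+ cells from the marrow of (C57Bl/6Ly-Pep3b×C3H/HeJ) F1 mice over 12 weeks old, which had received 150 mg/kg fluorouracil 4 days earlier. The cells were kept for 48 hours with IL-6, IL-3 and stem cell factor, were infected during 2 days of coculture with irradiated GP+E86 producer cells, and were collected 24 hours later. ND13 and ND13(N51S) were expressed from the same retroviral MSCV vector with an IRES-GFP cassette, and 2 further groups of 3 arrays each, the GFP control (the vector without a fusion) and NA10 (NUP98 fused to HOXA10), were used to place the levels. Each array thus holds RNA of a mixed population of transduced cells, with the fusions expressed from a retrovirus and not from a translocated allele, and fewer cells of a type and less RNA per cell cannot be told apart. The study describes 3 independent experiments for each condition and does not say whether arrays with the same number come from 1 experiment. The replicate number was used as the pair, and the counts without it stand beside the main ones.

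The deposited signals are MAS5 values on a linear scale, brought by the authors to a trimmed mean of 500.16 to 500.19 on every array. On the 6 arrays the median signal was 128 to 159, and 14446 to 16829 of the 22626 probe sets tested lay above the background, taken on each array as the 95th percentile of its 27 bacterial spike-in probe sets (40.5 to 69.8). ND13(N51S) replicate 2 stood apart. Its 3'-to-5' ratios of Gapdh (48.9) and beta-actin (9.09) compared with 1.72 to 2.71 on the other 11 arrays. The range of these ratios that the study gives for all samples does not cover this array. Its correlations with the other ND13(N51S) arrays were 0.890 and 0.900 on the log2 scale against 0.915 between those. The fold changes below are therefore given with and without this array, other than a few of further probe sets. For GFP control replicate 1 the array's own record names cells without GFP taken from the mutant's culture. The label was kept, and positions relative to the GFP control are also given without that array where they change. The markers of the sorted cells were present: 8 of the 9 progenitor markers were measured, all 8 above background in both groups, with a summed signal of 17092 to 18581 in ND13 and of 17434 to 20413 in ND13(N51S). Of the antigens used to deplete mature cells 4 were measured, with a summed signal of 105 to 195 in ND13 and 145 to 249 in ND13(N51S), and Cd4 was below background on all 6 arrays. Sca-1 itself had no probe set of its own here. The probe sets of these genes gave no check of the transgenes. Hoxd13 read 8.81, 9.21 and 8.07 with ND13 and 21.9, 4.93 and 4.03 with ND13(N51S), below background on all 6 arrays, and Nup98 read 425, 389 and 478 and 383, 499.7 and 338, groups that overlapped.

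In a fit of all 4 groups with the replicate number as a block, 14 probe sets were called higher in ND13 than in ND13(N51S) and 4 lower, where a call needs an adjusted p < 0.05 and a difference of 1.5-fold or more. These were 0.0619% and 0.0177% of the 22626 tested. The 14 named 10 genes and 1 probe set without a gene, and the 4 named 4 genes. Without ND13(N51S) replicate 2 the counts were 31 and 7 (0.137% and 0.0309%), and all 18 probe sets were among them. Without the replicate block only 3 (0.0133%) and 0 were called, which were Dlk1 and the Meg3 probe sets 1439380_x_at and 1452183_a_at. At the unadjusted p < 0.05 with the same fold, the thresholds of the study's methods, 942 probe sets were higher and 976 lower (4.16% and 4.31%). Without ND13(N51S) replicate 2 they were 769 and 945 (3.4% and 4.18%). The study applied these thresholds to values of another normalisation, GC-RMA, so the counts do not repeat its own. The median log2 fold change over all probe sets was -0.06, and centring each array on its median turned the 942 and 976 into 1180 and 863. All 3 ND13 arrays lay above all 3 ND13(N51S) arrays in 4.28% of the probe sets and below them in 8.04%. In the counts over gene lists below, each gene is read at its brightest probe set, higher and lower mean past the unadjusted threshold, and called means past the adjusted one. Of 12393 genes so read 3.44% were higher and 4.58% lower, and 2.94% and 4.28% without ND13(N51S) replicate 2, with 0.153% and 0.0484% then called. A fold change below is ND13 over ND13(N51S), values listed in threes are those of replicates 1, 2 and 3 in that order, and the adjusted p is that of limma. Where 2 values are joined by "or", the second is from the fit without ND13(N51S) replicate 2.

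How far the calls rested on single arrays differed between genes. The same 3 probe sets of Dlk1 and Meg3 were called in each of the 12 fits that left out 1 array. Each of the other 15 lost its call in at least 2 of the 3 fits that left out an ND13 array. The fewest calls came without ND13 replicate 1 or 3 (3 higher and 0 lower each) and the most without ND13(N51S) replicate 3 (91 higher and 8 lower). Arrays of the other groups enter through the block and the shared estimate of the spread, and leaving out NA10 replicate 3 gave 4 higher and 1 lower. Without GFP control replicate 1, whose record differs from its label, 6 were called higher and 3 lower. Ccr1, Ddx6, Ifitm2, Malat1, Pafah1b1, Pura, Rbm5, Tecpr1 and Nkg7 then lost their calls.

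**Figure D1:**
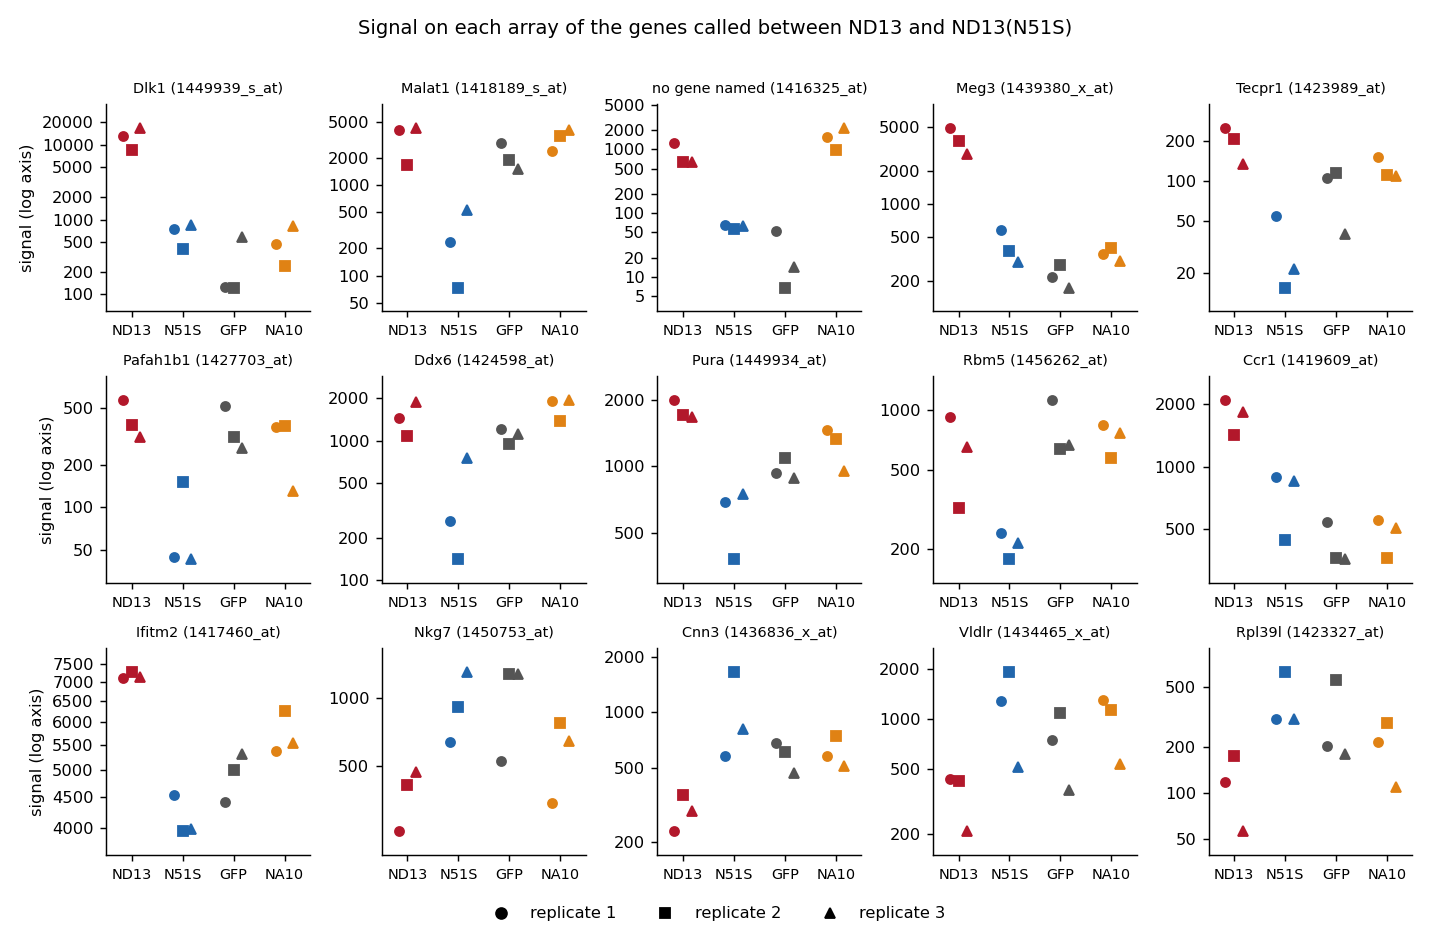
Signal (log axis, arbitrary MAS5 units) of the 14 named genes and the unnamed probe set called between ND13 and ND13(N51S), 1 probe set per gene, with 1 point per array and 3 arrays in each group. The ND13 and ND13(N51S) points are separate in all 15 panels, with Dlk1 at 8489.9 to 16893 against 400.2 to 836, and the GFP control lies nearer to ND13(N51S) for Dlk1 and Meg3 and nearer to ND13 for Malat1 and Rbm5.

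Dlk1 and Meg3, imprinted neighbours on chromosome 12, gave the calls that held in each of these fits. Dlk1 is a transmembrane protein with EGF-like repeats, related to Notch ligands and expressed from the paternal allele. Meg3 is a long noncoding RNA made from the maternal allele of the same domain, as is Rian. Dlk1 read 13178, 8489.9 and 16893 with ND13, 747, 400.2 and 836 with ND13(N51S), 124, 123 and 588 in the GFP control and 471, 236 and 826 with NA10. All 3 ND13 arrays were high, at 19.6 times the mutant (log2 fold change and SE 4.29 ± 0.32, or 4.34 ± 0.35 without ND13(N51S) replicate 2, adjusted p = 0.000113 or 0.000243). The mutant arrays overlapped those of the GFP control. Relative to that control the mean log2 signal was 5.89 higher with ND13, 1.60 higher with the mutant and 1.12 higher with NA10.

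Meg3 had 5 probe sets, of which 3 were called. The brightest, 1439380_x_at, read 4861, 3716 and 2812 with ND13, 574, 374 and 297 with ND13(N51S), 217, 281 and 175 in the GFP control and 349, 397 and 306 with NA10. Its log2 fold change between the fusions was 3.21 ± 0.21 or 3.07 ± 0.21 (adjusted p = 8.4e-05 or 9.8e-05). Here the mutant arrays, too, lay above all 3 GFP control arrays, by a mean of 0.86 log2 units, while ND13 lay 4.07 above. The probe set 1452183_a_at read 2636, 1282 and 1453 with ND13 and 127, 30.3 and 44.6 with the mutant, and the log2 fold change of 4.93 ± 0.35 or 4.72 ± 0.38 set it against a mutant level that was below background on replicates 2 and 3 (adjusted p = 0.000113 or 0.000243). The last called probe set, 1426758_s_at, read 1064, 697 and 655 and 84.7, 53.4 and 132 (3.22 ± 0.47 or 3.11 ± 0.54, adjusted p = 0.0401 or 0.0496, and 0.0213 to 0.230 over the fits that left out 1 array each). Neither of the other probe sets of Meg3 was called. Of these, 1436713_s_at read 109, 39.5 and 68.3 and 20.1, 3.43 and 13.9, with all mutant arrays and 2 of the 3 ND13 arrays below background, so that no fold is given, and 1436057_at read 136, 94.5 and 118 and 92.5, 66.3 and 73.6.

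Rian, the second noncoding RNA of the domain, was higher on each ND13 array at its 3 probe sets without passing the test. The brightest, 1452899_at, read 164, 151 and 200.1 with ND13 and 130.5, 119 and 57.1 with ND13(N51S) (0.83 ± 0.39 or 1.05 ± 0.45, adjusted p = 0.457 or 0.418). At 1428055_at the signals were 715, 470.0 and 245 and 52.6, 65.1 and 21.6 (3.37 ± 0.58 or 3.79 ± 0.67, adjusted p = 0.0635 or 0.0545). At 1427580_a_at they were 509.7, 226 and 317 and 115, 18.2 and 43.8 (2.88 ± 0.54 or 2.46 ± 0.58, adjusted p = 0.0794 or 0.130). Of the mutant arrays, 1 was below background at 1428055_at and 2 at 1427580_a_at. Of the 6 genes listed for the domain 3 were measured, 2 of them were called, and the median log2 fold change of the 3 was 3.21, against -0.07 over 12393 genes at 1 probe set each, of which 0.0484% were called higher and 0.0323% lower. Over 14 of 15 other imprinted growth genes the median was -0.09 and 0 were called; 2 were lower, Grb10, an adaptor of insulin signalling (292, 377 and 238 against 637, 1115 and 621, log2 fold change -1.36 ± 0.23 or -1.16 ± 0.22, adjusted p = 0.0583 or 0.0666), and Dcn, the matrix proteoglycan decorin (179, 178 and 118 against 340.0, 355 and 403, log2 fold change -1.23 ± 0.28 or -1.37 ± 0.31, adjusted p = 0.138 or 0.111).

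The promoters of Dlk1 and Meg3 are shown because the calls of these genes held in each fit above. Each run holds 250 bases before and 50 after a RefSeq start site on the plus strand of mouse build GRCm38.p6, 5′ to 3′, at chr12:109452573-109452872 for Dlk1 and chr12:109540746-109541045 for the first of the RefSeq promoters of Meg3, with motif matches in capitals.
Dlk1: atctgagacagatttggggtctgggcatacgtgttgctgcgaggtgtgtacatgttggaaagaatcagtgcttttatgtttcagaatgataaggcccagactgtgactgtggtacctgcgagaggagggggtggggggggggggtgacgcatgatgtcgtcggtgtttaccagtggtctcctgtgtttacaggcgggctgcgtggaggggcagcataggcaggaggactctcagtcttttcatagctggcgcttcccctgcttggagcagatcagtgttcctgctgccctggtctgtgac
Meg3: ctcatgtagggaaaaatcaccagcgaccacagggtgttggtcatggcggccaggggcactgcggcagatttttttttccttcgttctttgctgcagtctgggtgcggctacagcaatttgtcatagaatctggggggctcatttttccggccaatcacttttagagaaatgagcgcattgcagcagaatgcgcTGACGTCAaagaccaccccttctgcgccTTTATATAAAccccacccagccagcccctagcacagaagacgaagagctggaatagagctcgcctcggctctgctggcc
The capitals in Meg3 mark a CRE-type match (TGACGTCA, at -57) and, nearer the start site, overlapping matches on both strands to a TATA-type motif (TATAAA, at -25 and -29). The 14 called genes and Ptprf, Hoxa7, Pbx3 and Calcrl, described below, were looked up. Of these 18 genes 15 had promoters in the RefSeq table, 17 in all. A HOX13-type motif (CCAATAAA) and a HOX-PBX-type motif (TGATTTAT), searched on both strands, were in 0 of the 17, and are in 1.12% and 0.98% of all 32851 promoters of this length. A MEIS-type motif (TGACAG) was in 1 of the 17, that of Rbm5, against 19.18% of all. The TATA-type motif was in 2 (Meg3 and Ifitm2) against 13.62% of all, and the CRE-type motif in 1 (Meg3) against 1.79%. The TATA and CRE motifs were added after the sequences had been read. A match is a string of letters and not a site, and these windows leave out enhancers and the intergenic control region of the domain.

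Besides the imprinted genes, 4 genes were higher in ND13 than in both the mutant and the GFP control. Ccr1, a receptor for the chemokines CCL3 and CCL5 on myeloid cells, read 2102, 1418 and 1829 with ND13, 897, 444 and 849 with ND13(N51S), 544, 364 and 357 in the GFP control and 553, 362 and 507 with NA10. The lowest ND13 array stood above the highest of the other 9, and the fold change over the mutant was 2.53 (1.34 ± 0.19 or 1.16 ± 0.17 on the log2 scale, adjusted p = 0.0401 or 0.0189, and 0.0153 to 0.208 over the fits without 1 array each). Without GFP control replicate 1 the mutant, too, lay above the control arrays for Ccr1, as it did for the Meg3 probe sets 1452183_a_at and 1426758_s_at. A dimmer probe set of Ccr1, 1419610_at, read 174, 183 and 75.8 and 113, 113 and 36.8, groups that overlapped. Ifitm2, an interferon-induced membrane protein that hinders the entry of viruses, read 7096, 7269.6 and 7126 with ND13 against 4545, 3949 and 3990.3 with ND13(N51S) and 4418, 4985 and 5315 in the control. The ND13 arrays lay within a narrow band, and the change was 1.72-fold (0.79 ± 0.12 or 0.72 ± 0.11, adjusted p = 0.0401 or 0.0314, and 0.0314 to 0.228 over the fits without 1 array each). The mutant overlapped the control only through GFP control replicate 1, and lay below the other 2 control arrays.

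Tecpr1, a protein that helps autophagosomes to fuse with lysosomes, read 254, 208 and 134 with ND13, 53.95, 15.5 and 21.4 with ND13(N51S) and 105, 116 and 39.8 in the control at the called probe set 1423989_at, with mutant replicates 2 and 3 below background (2.88 ± 0.43 or 2.41 ± 0.40, adjusted p = 0.0424 or 0.0413, and 0.0288 to 0.228 over the fits without 1 array each). Its brighter probe set, 1434175_s_at, gave 349, 231 and 232 and 403, 354 and 231 (-0.27 ± 0.26 or -0.24 ± 0.29, adjusted p = 0.716 or 0.821). Pura, a protein that binds purine-rich single-stranded DNA and RNA, read 1995, 1699 and 1671 with ND13, 691, 380.5 and 752 with ND13(N51S) and 934, 1089 and 883 in the control. It was the only called gene with ND13 above and the mutant below all 3 control arrays (1.61 ± 0.24 or 1.27 ± 0.17, adjusted p = 0.0424 or 0.0181, and 0.00771 to 0.228 over the fits without 1 array each). A second probe set of Pura, 1420628_at, pointed the same way without passing the test (1238, 864 and 943 against 531, 803 and 661, log2 fold change 0.61 ± 0.23 or 0.91 ± 0.18, adjusted p = 0.369 or 0.0865).

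The probe set 1416325_at, which the annotation used here assigned to no gene, read 1249, 642 and 628 with ND13, 66.6, 56.2 and 62.3 with ND13(N51S), 52.5, 6.87 and 14.3 in the control and 1574, 975 and 2176 with NA10. Both NUP98-HOX fusions with an unchanged homeodomain were high, and the mutant stood above the control but far below both (3.69 ± 0.45 or 4.00 ± 0.47, adjusted p = 0.0145 or 0.00748, and 0.000881 to 0.131 over the fits without 1 array each).

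In 4 genes it was the mutant that departed from the control: ND13 overlapped the GFP control and all 3 mutant arrays lay below it. Malat1, a nuclear noncoding RNA of the splicing speckles, read 4078, 1669.9 and 4282 with ND13, 238, 74.01 and 529.8 with ND13(N51S), 2933, 1877 and 1504 in the control and 2386, 3446 and 4051 with NA10 at 1418189_s_at. The mutant was -3.27 log2 units from the control and ND13 0.61, and the difference between the fusions was 3.87 ± 0.51 or 3.27 ± 0.41 (adjusted p = 0.0401 or 0.00842, and 0.00245 to 0.228 over the fits without 1 array each). The probe set 1418188_a_at, with mutant replicate 2 below background, showed the same order, with 1329.8, 491 and 449 against 75.2, 24.3 and 105 (3.53 ± 0.54 or 2.90 ± 0.47, adjusted p = 0.0490 or 0.0352). The other 3 probe sets of Malat1 were not called, and the groups overlapped in each: 1452378_at read 389, 173 and 233 and 176, 134 and 200.3, 1438403_s_at 1668, 564 and 127 and 152, 35.98 and 205, and 1427285_s_at 68.1, 22.9 and 82.1 and 28.8, 5.67 and 53.4.

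Ddx6, an RNA helicase of processing bodies, read 1453, 1069 and 1889 with ND13, 266, 141 and 753 with ND13(N51S) and 1208, 941 and 1112 in the control at 1424598_at (2.23 ± 0.33 or 1.83 ± 0.28, adjusted p = 0.0401 or 0.0236, and 0.000959 to 0.228 over the fits without 1 array each). The brightest probe set of Ddx6, 1434697_at, read 779.8, 1867 and 1005 and 1097, 1217 and 993 and showed no such difference (0.05 ± 0.20 or -0.09 ± 0.20), and 1439122_at lay between (0.54 ± 0.27 or 0.47 ± 0.30, adjusted p = 0.481 or 0.614). Pafah1b1, also known as Lis1, a regulator of the dynein motor, read 570.0, 378 and 313 with ND13 against 44.8, 151 and 43.01 with the mutant and 512, 313 and 260.2 in the control at 1427703_at, with mutant replicates 1 and 3 below background (2.62 ± 0.41 or 3.17 ± 0.34, adjusted p = 0.0490 or 0.00388, and 0.00388 to 0.230 over the fits without 1 array each). Without GFP control replicate 1 the ND13 arrays lay above the control. The other 3 probe sets of Pafah1b1 pointed the other way without passing the test, at log2 fold changes of -0.41 ± 0.26, -0.28 ± 0.16 and -0.34 ± 0.19, and -0.02 ± 0.17, -0.26 ± 0.16 and -0.32 ± 0.20 without ND13(N51S) replicate 2. Rbm5, an RNA-binding regulator of splicing, read 919, 321 and 647 with ND13, 240.1, 177 and 213 with ND13(N51S) and 1124, 635 and 669 in the control at 1456262_at (1.47 ± 0.23 or 1.59 ± 0.23, adjusted p = 0.0480 or 0.0189, and 0.0189 to 0.230 over the fits without 1 array each). Of its other 3 probe sets 1438069_a_at pointed the same way (558, 159 and 204 against 124, 56.3 and 98.9, log2 fold change 1.57 ± 0.28 or 1.43 ± 0.30, adjusted p = 0.0703 or 0.0903), as did 1452187_at (286, 260.2 and 438 against 225, 11.7 and 252, 1.87 ± 0.78 or 0.50 ± 0.22, adjusted p = 0.408 or 0.446), whereas the brightest, 1452186_at, read 2914, 3792 and 3842 and 4402, 1999 and 3258 (0.19 ± 0.24 or -0.18 ± 0.17). For Malat1, Ddx6 and Rbm5 the mutant arrays were also low without replicate 2, the array with the high 3'-to-5' ratios. For Tecpr1, Ddx6, Pafah1b1 and Rbm5 the called probe set was not the brightest of its gene, and whether probe sets of 1 gene read different transcripts was not tested.

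**Figure D2:**
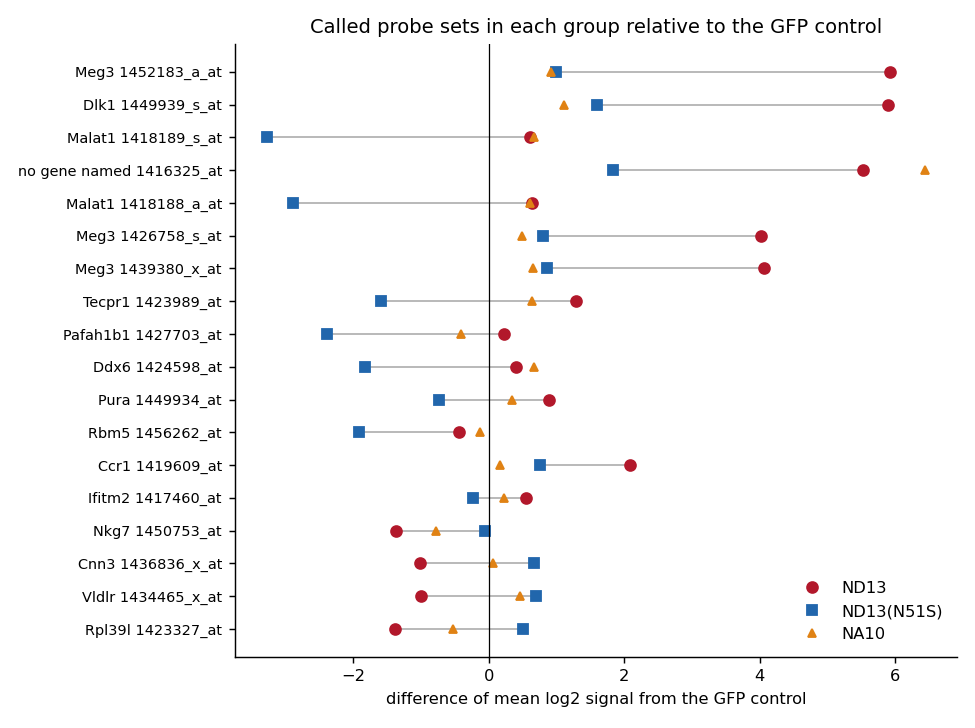
Difference of the mean log2 signal from the GFP control for the 18 called probe sets, with ND13 as circles, ND13(N51S) as squares and NA10 as triangles, 3 arrays per group. All 3 groups share the control arrays, so positions are not independent of each other; ND13 is far to the right for Dlk1 (5.89) and Meg3, while for Malat1 it is the mutant that lies far to the left (-3.27).

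The 4 genes lower in ND13 were of mixed function. Rpl39l, a tissue-restricted relative of a ribosomal protein, read 117, 174 and 55.7 with ND13 and 304, 625 and 306 with ND13(N51S), beside 204, 552 and 181 in the control, with ND13 replicate 3 below background (-1.89 ± 0.27 or -1.94 ± 0.31, adjusted p = 0.0401 or 0.0314, and 0.0314 to 0.195 over the fits without 1 array each). Vldlr, a receptor for apolipoprotein E and reelin, read 432, 423 and 208 with ND13, 1287, 1927 and 513 with ND13(N51S) and 749.5, 1086 and 369 in the control, all at their lowest in replicate 3 (-1.69 ± 0.20 or -1.49 ± 0.19, adjusted p = 0.0145 or 0.00842, and 0.00729 to 0.126 over the fits without 1 array each). At each replicate number the mutant stood above ND13, and both groups overlapped the control. Of its other 3 probe sets, none called, 1417900_a_at had a log2 fold change of -0.94 ± 0.39 or -0.82 ± 0.45, 1442169_at had the other sign (0.20 ± 0.68 or 0.82 ± 0.73) with 2 ND13 arrays and 1 mutant array below background, and 1451156_s_at was below background on all 6 arrays. Cnn3, the actin-binding protein calponin 3, read 228, 357 and 295 with ND13 and 583, 1658 and 818 with ND13(N51S) at 1436836_x_at, beside 682, 613 and 474 in the control (-1.68 ± 0.26 or -1.37 ± 0.23, adjusted p = 0.0490 or 0.0428, and 0.0267 to 0.230 over the fits without 1 array each). Its other 5 probe sets had log2 fold changes of the same sign, from -1.34 ± 0.22 to -0.48 ± 0.51, and none was called. Nkg7, a granule membrane protein of natural killer and cytotoxic T cells, read 258, 412 and 471 with ND13, 640.1, 918 and 1311 with ND13(N51S) and 526, 1279 and 1285 in the control (-1.31 ± 0.19 or -1.49 ± 0.18, adjusted p = 0.0401 or 0.00748, and 0.00748 to 0.216 over the fits without 1 array each). For Rpl39l, Cnn3 and Nkg7 the ND13 arrays lay below all 3 control arrays, while the mutant overlapped them.

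Markers of other cells moved alongside these lower genes. The producer cells of the coculture are fibroblasts, and 19 of 20 fibroblast markers, measured at 1 probe set each, had a summed signal of 3246 to 3541 on the ND13 arrays and 4458 to 6976 on the ND13(N51S) arrays, beside 3161 to 4506 in the GFP control. The groups did not overlap, and the highest array was ND13(N51S) replicate 2. Of the 19 markers 6 were lower in ND13 and 0 were called, and their median log2 fold change was -0.41. A positive log2 fold change was found in 6 of the 19. Fibronectin, Fn1, read 275, 232 and 199 against 732, 988 and 486 (-1.60 ± 0.30 or -1.56 ± 0.34, adjusted p = 0.0807 or 0.101), and smooth muscle actin, Acta2, read 223, 316 and 291 against 478, 634 and 471 (-0.93 ± 0.19 or -0.91 ± 0.21, adjusted p = 0.0993 or 0.120). Sparc, Postn and Loxl1 were below background on all 3 ND13 arrays and Tagln on all 3 mutant arrays. Mast cell, basophil and eosinophil markers, of which 13 of 15 were measured, also had sums that did not overlap between the fusions. The summed signal was 3246 to 4254 in ND13 and 5083 to 8718 in ND13(N51S), beside 2621 to 4608 in the control. Their median log2 signal did overlap, at 6.67, 7.05 and 4.97 in ND13 and 6.11, 7.46 and 7.13 in ND13(N51S). Of the 13 markers 2 had a positive log2 fold change. In ND13 4 were lower, 0 were called, and the median was -0.81. They included Fcer1a, the alpha chain of the IgE receptor (305, 262 and 159 against 597, 1186 and 669, log2 fold change -1.74 ± 0.32 or -1.80 ± 0.36, adjusted p = 0.0713 or 0.0839), the mast cell carboxypeptidase Cpa3 (1917, 1397 and 1524 against 2174, 4438 and 2706, log2 fold change -0.89 ± 0.23 or -0.71 ± 0.22, adjusted p = 0.182 or 0.268) and the basophil protease Mcpt8 (561, 886 and 911 against 1276, 1264 and 1551, log2 fold change -0.82 ± 0.25 or -1.07 ± 0.23, adjusted p = 0.266 or 0.101). The part of either marker list in the 4 lower genes was not tested.

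**Figure D3:**
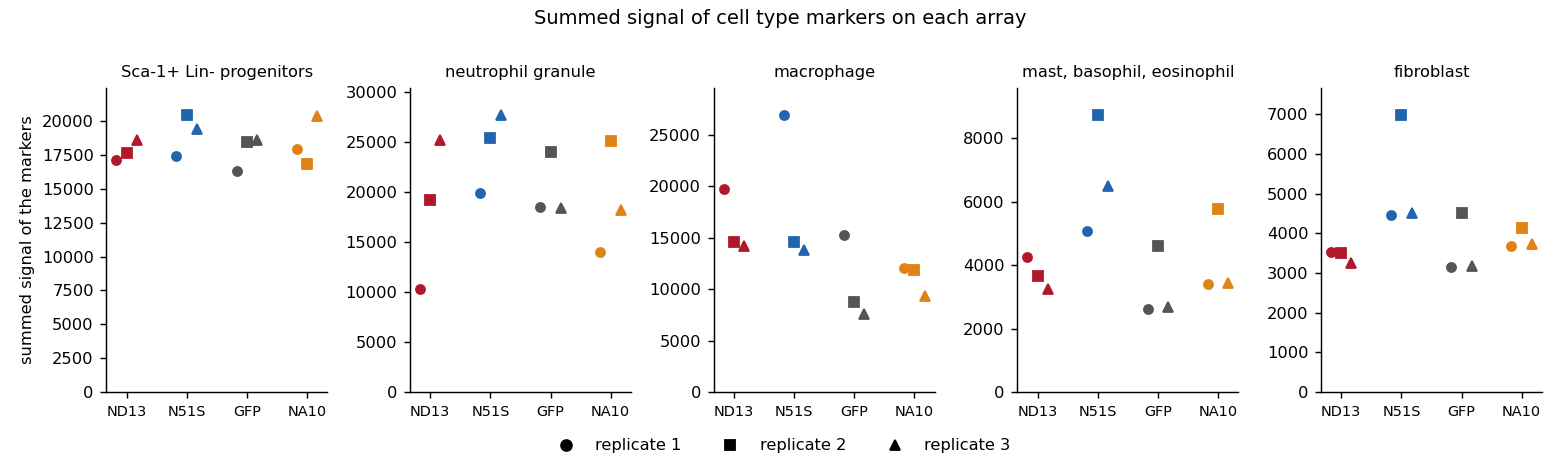
Summed signal (linear axis from 0) of 5 marker lists on each of the 12 arrays, with 3 arrays per group. The sums of fibroblast markers and of mast cell, basophil and eosinophil markers were lower on all 3 ND13 arrays than on all 3 ND13(N51S) arrays. Those of progenitor, neutrophil and macrophage markers overlapped.

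Markers of other lineages separated the groups less. Of the 8 progenitor markers 1 was higher and 1 lower, and of the 4 lineage antigens of the sort 0. Of 12 neutrophil granule markers 2 were lower, myeloperoxidase Mpo (2205, 6366 and 9030.0 against 6895, 11815 and 12195, log2 fold change -0.99 ± 0.29 or -1.03 ± 0.31, adjusted p = 0.244 or 0.254) and cathepsin G, Ctsg (1237, 3563 and 4225 against 2744, 4718 and 5545, log2 fold change -0.65 ± 0.28 or -0.73 ± 0.31, adjusted p = 0.417 or 0.420), and for both the groups overlapped, with ND13 replicate 1 the lowest array. Macrophage markers had 1 of 15 higher and 2 lower, among them the scavenger receptor Msr1 (167, 102 and 164 against 382, 189 and 341, log2 fold change -1.05 ± 0.27 or -1.18 ± 0.29, adjusted p = 0.184 or 0.153). Of 12 erythroid markers 1 was higher and 1 lower, of 12 megakaryocyte markers 0 and 1, and of 17 lymphoid markers 0 and 2. Il7r, the interleukin-7 receptor of lymphoid progenitors, read 703, 755 and 171 with ND13(N51S) and 164, 183 and 151 with ND13, so that mutant replicates 1 and 2 stood apart and replicate 3 did not (-1.44 ± 0.37 or -1.22 ± 0.42, adjusted p = 0.198 or 0.301). No marker in these lists was called with all arrays.

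Leaving out ND13(N51S) replicate 2 added 17 higher and 3 lower probe sets to the calls. These were chosen after their values were seen. All 20 had the same sign with all arrays, and 12 of them had an adjusted p under 0.1 there. Hoxa7, a HoxA cluster gene raised in several leukemias, read 292, 382 and 178 with ND13, 61.9, 10.2 and 40.9 with ND13(N51S) and 78.2, 157 and 39.6 in the control. Mutant replicates 2 and 3 were below background, and the fitted difference moved with the former, the lowest array (3.20 ± 0.63 or 2.13 ± 0.34, adjusted p = 0.0887 or 0.0316). Pbx3, a TALE partner of HOX proteins, read 552, 365 and 463 against 190.3, 200.3 and 217 and 224, 217 and 218 in the control, with all 3 ND13 arrays above the other 6 (1.17 ± 0.20 or 1.26 ± 0.21, adjusted p = 0.0646 or 0.0439). NA10 read 621, 408 and 469.6 for Pbx3 and 205, 267 and 179 for Hoxa7.

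Ptprf, Calcrl, Bmpr2 and Rrad act at or near the cell surface. Ptprf, a receptor tyrosine phosphatase of the LAR family, read 726, 599.7 and 385 with ND13, 88.6, 152 and 20.7 with ND13(N51S), 18.98, 13.5 and 30.3 in the control and 269.9, 216 and 205 with NA10, with mutant replicate 3 below background (3.08 ± 0.57 or 3.77 ± 0.52, adjusted p = 0.0713 or 0.0183). A second probe set of Ptprf, 1420842_at, pointed the same way (489, 301 and 207 against 70.9, 65.4 and 73.7, log2 fold change 2.16 ± 0.45 or 2.04 ± 0.51, adjusted p = 0.103 or 0.157), whereas 1420841_at read 104, 60.8 and 74.3 against 83.96, 66.2 and 70.4 (0.09 ± 0.43 or -0.04 ± 0.52). Calcrl, a receptor for adrenomedullin, read 933, 1258 and 813 against 382, 780.4 and 218 and 442, 672 and 251 in the control, and at each replicate number ND13 was the higher one (1.29 ± 0.24 or 1.54 ± 0.21, adjusted p = 0.0713 or 0.0183). Bmpr2, a receptor for bone morphogenetic proteins, read 177, 95.04 and 108 and 31.9, 42.3 and 21.1, with the mutant below background on all 3 arrays and ND13 at least 2.44-fold higher (adjusted p = 0.0754 or 0.0263). Rrad, a small GTPase that restrains calcium channels, was likewise below background with the mutant (165, 122 and 196 against 15.9, 45.8 and 35.7), and ND13 was at least 3.16-fold higher (adjusted p = 0.0926 or 0.0372). For both genes the GFP control lay nearer to ND13, at 117, 69.3 and 79.6 for Bmpr2 and 245, 87.6 and 132 for Rrad.

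Car2, the carbonic anhydrase of erythroid and other cells, read 4811, 3279 and 7659.5 against 2595, 2455 and 2134 (1.05 ± 0.29 or 1.45 ± 0.22, adjusted p = 0.219 or 0.0263). Dtx3, a ubiquitin ligase of the Deltex family, read 535, 419 and 618 against 189.8, 387 and 175 (1.14 ± 0.33 or 1.67 ± 0.20, adjusted p = 0.232 or 0.00748). Xbp1, a transcription factor of the unfolded protein response, read 2124, 2121 and 3535 against 838, 469 and 1752 at 1420011_s_at (1.51 ± 0.25 or 1.12 ± 0.16, adjusted p = 0.0580 or 0.0189). The brightest probe set of Xbp1, 1437223_s_at, differed less (0.67 ± 0.16 or 0.52 ± 0.15, adjusted p = 0.173 or 0.249). The Golgi mannosidase Man1a read 2403, 1421 and 1804 against 969.6, 725 and 992 at 1417110_at (1.05 ± 0.17 or 1.002 ± 0.17, adjusted p = 0.0546 or 0.0481). Its brighter probe set, 1417111_at, read 2394, 2234 and 2133 against 1549.9, 2569.8 and 1348, groups that overlapped (0.36 ± 0.18 or 0.61 ± 0.12, adjusted p = 0.464 or 0.0753). The sialic acid transporter Slc35a1 read 1613, 1784 and 1952 against 826, 1598 and 976 (0.71 ± 0.19 or 0.96 ± 0.14, adjusted p = 0.213 or 0.0189). Plscr1, a phospholipid scramblase induced by interferon, read 1988, 2642 and 1617 against 826, 2063 and 875 (0.84 ± 0.21 or 1.12 ± 0.16, adjusted p = 0.181 or 0.0189), and its other probe set pointed the same way (0.84 ± 0.18 or 0.97 ± 0.18, adjusted p = 0.116 or 0.0633). For Myadm, a membrane protein of the myeloid lineage (2374, 1887 and 2061 against 987, 2373 and 1138, 0.60 ± 0.25 or 1.001 ± 0.15, adjusted p = 0.399 or 0.0196), and Basp1, a lipid-anchored membrane protein (1530.0, 1441 and 1456 against 912, 2029 and 633, 0.49 ± 0.29 or 0.99 ± 0.15, adjusted p = 0.556 or 0.0194), replicate 2 of the mutant was as high as ND13 or higher, and the call rested on leaving it out. The remaining higher probe sets were Tmem71 (593, 429 and 479 against 194, 310.0 and 189.7, 1.14 ± 0.29 or 1.52 ± 0.25, adjusted p = 0.192 or 0.0337), Fam107b (2829.9, 2892 and 4532 against 1749, 1015 and 2685 at 1448509_at, 0.99 ± 0.18 or 0.72 ± 0.11, adjusted p = 0.0671 or 0.0196, with the brightest probe set at 0.08 ± 0.11 or 0.16 ± 0.10) and 1424923_at, which has no gene here (7854, 7987 and 9767 against 4895, 3109.8 and 6347, 0.89 ± 0.15 or 0.69 ± 0.11, adjusted p = 0.0580 or 0.0337).

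The 3 lower ones were Podxl, Hmga2 and Tmem40. Podxl, a sialomucin of the CD34 family, read 87.9, 148 and 336 with ND13 and 425, 309 and 913 with ND13(N51S), both at their highest in replicate 3, with ND13 the lower one at each replicate number (-1.59 ± 0.26 or -1.90 ± 0.23, adjusted p = 0.0580 or 0.00748). Hmga2, a chromatin protein of fetal and self-renewing cells, read 559, 1001 and 399 against 1676, 1769 and 1537 and 967, 1788 and 1435 in the control (-1.45 ± 0.24 or -1.64 ± 0.23, adjusted p = 0.0580 or 0.0189). Another probe set of Hmga2, 1450780_s_at, had a log2 fold change of -1.20 ± 0.25 or -0.92 ± 0.21, and a further one, 1450781_at, of 0.27 ± 0.33 or 0.24 ± 0.37. Tmem40 read 1182, 1335 and 949.8 against 1978, 969 and 2223, where replicate 2 was the one low mutant array (-0.50 ± 0.28 or -0.97 ± 0.14, adjusted p = 0.517 or 0.0209). Its other probe set, 1451546_s_at, read 166, 311 and 225 against 280, 110 and 270 and had the other sign with all arrays (0.16 ± 0.35 or -0.36 ± 0.25).

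**Figure D4:**
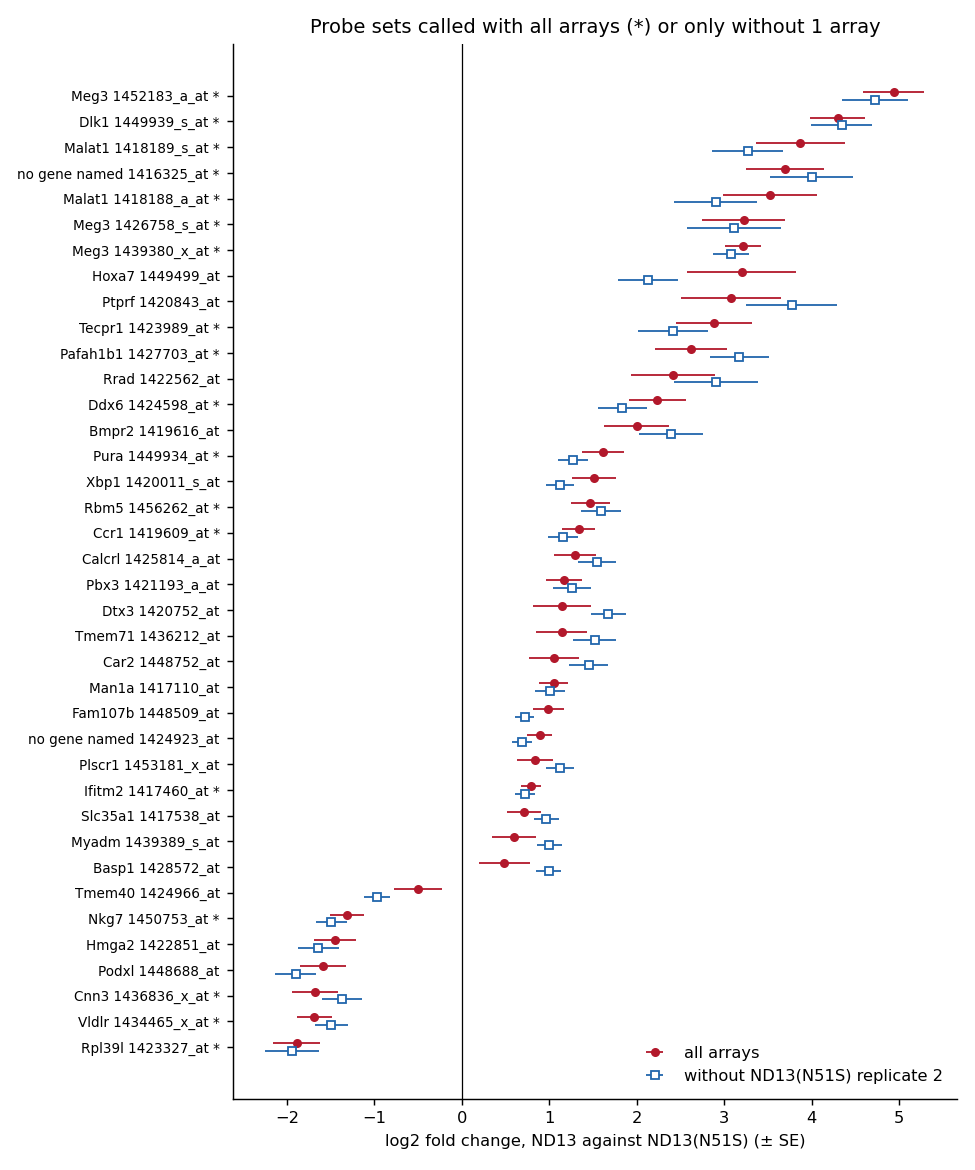
Log2 fold change of ND13 against ND13(N51S), with its SE, for the 18 probe sets called with all arrays (marked *) and the 20 called only without ND13(N51S) replicate 2. Filled circles are the fit with all 12 arrays and open squares the fit without that array, and all 38 keep their side of 0 from one fit to the other, from 4.93 for Meg3 to -1.89 for Rpl39l. The values of Bmpr2 and Rrad are fits against mutant arrays below background and give no size.

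Among the Hox clusters the HoxA genes were the ones that leaned towards ND13. Of 9 HoxA genes measured 8 had a positive log2 fold change, against 5367 of all 12393 genes at 1 probe set each. Among the HoxA genes 2 were higher and 0 lower, and the median was 0.50. With all arrays 0 were called, and 1 without ND13(N51S) replicate 2. The 2 higher ones, Hoxa5 and Hoxa7, are on the study's list, which was chosen on these same samples. Hoxa5 read 493, 393 and 362 with ND13, 325, 176 and 57.4 with ND13(N51S), 117, 212 and 254 in the control and 691, 582 and 612 with NA10 (1.47 ± 0.48 or 1.59 ± 0.54, adjusted p = 0.296 or 0.296). Its groups did not overlap, but mutant replicate 3 lay far below the other mutant arrays. Hoxa9, the HoxA gene most tied to leukemia, was bright in all groups, at 4965, 4920.5 and 5563 with ND13 and 3534, 4960.3 and 3785 with ND13(N51S) (0.34 ± 0.13 or 0.52 ± 0.10, adjusted p = 0.370 or 0.0633). Only mutant replicate 2 reached the ND13 level, and without it the difference was 0.52 ± 0.10 (adjusted p = 0.0633), under the 1.5-fold limit. Hoxa10, the partner in NA10, read 58.6, 108 and 142 with ND13 and 97.4, 169.9 and 83.2 with ND13(N51S) (-0.20 ± 0.44 or 0.13 ± 0.47). A second probe set of Hoxa9, 1421579_at, had a log2 fold change of 0.30 ± 0.22.

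The other clusters held dim genes. Of 9 HoxB genes 1 was higher and 1 lower, and the median was -0.85. Hoxb3 read 33.5, 62.9 and 57.4 against 16.8, 7.59 and 32.9, with all mutant and 2 ND13 arrays below background. Hoxb9 read 5.08, 7.09 and 4.52 against 52.3, 7.71 and 38.8, with all ND13 and 2 mutant arrays below it, so that no fold is given for either. Hoxb4, used to expand stem cells, read 209, 164 and 108 and 136, 132 and 114, groups that overlapped (0.28 ± 0.24 or 0.28 ± 0.28). Of 13 HoxC and HoxD genes 0 were higher and 3 lower, with a median of -0.26. Among 12 TALE genes 1 was higher, Pbx3, and 1 lower, with a median of -0.35. The lower one was Meis1, a HOX cofactor of stem cells and leukemias, at 881, 909 and 679.5 with ND13 and 1224, 1724 and 1019 with ND13(N51S), beside 921, 887 and 943 in the control. All 3 ND13 arrays were below all 3 mutant arrays, the difference did not pass the adjusted test (-0.66 ± 0.18 or -0.46 ± 0.16, adjusted p = 0.225 or 0.301), and it was -0.46 ± 0.16 without ND13(N51S) replicate 2, the highest of the mutant arrays.

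**Figure D5:**
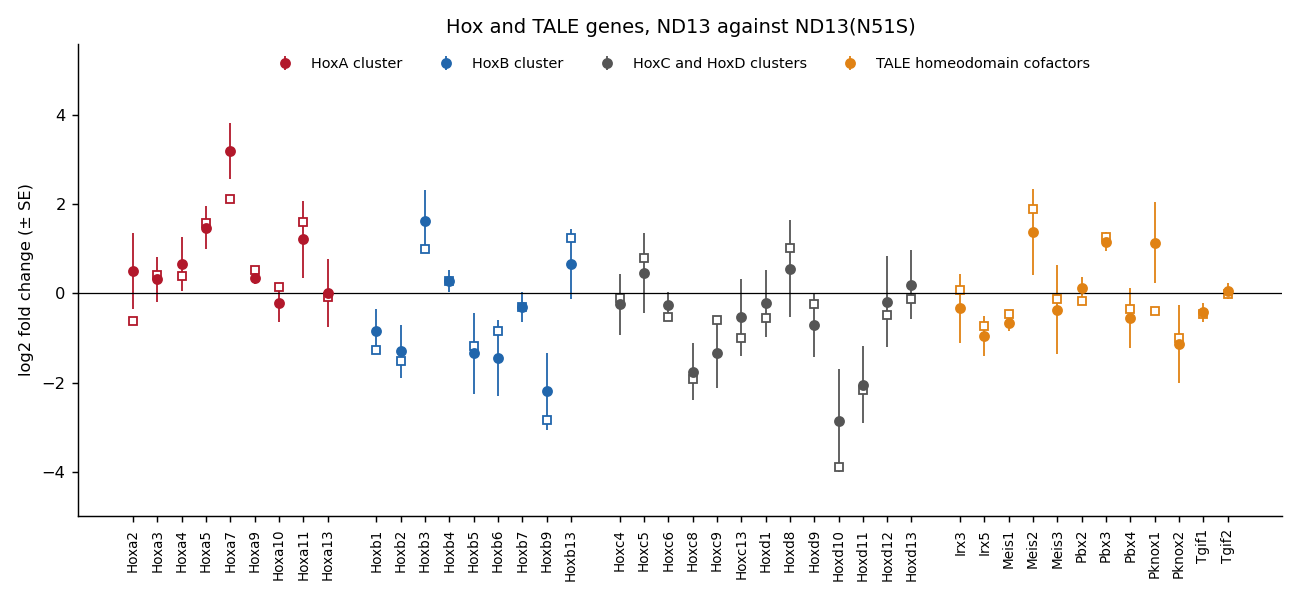
Log2 fold change of ND13 against ND13(N51S), with its SE, for 9 HoxA, 9 HoxB, 13 HoxC and HoxD and 12 TALE genes at 1 probe set each. Open squares are the fit without ND13(N51S) replicate 2. Hoxa7 (3.20), Hoxa5 (1.47) and Pbx3 (1.17) lie above 0 and Meis1 (-0.66) below it, while the dim HoxB, HoxC and HoxD genes have wide error bars, and a fit of a gene below background on all arrays of a group, such as Hoxb3, gives no size.

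Transcription factors of stem cells were split. Of 21 measured 2 were higher and 2 lower, 0 were called and the median was -0.07. Hlx, a homeobox gene of blood progenitors, read 436, 185 and 331 with ND13, 56.3, 64.95 and 87.9 with ND13(N51S), 52.4, 18.6 and 91.6 in the control and 177, 120.5 and 130.3 with NA10. The 3 ND13 arrays were the highest of the 12, and the difference from the mutant was 2.13 ± 0.43 or 2.45 ± 0.45 (adjusted p = 0.0940 or 0.0633). Myb, a factor of cycling progenitors, read 3074, 4116 and 3627 against 4548, 5698 and 4905 (-0.49 ± 0.11 or -0.46 ± 0.11, adjusted p = 0.113 or 0.124), and Gata2, a factor of stem and mast cells, read 705, 870.1 and 761 against 1084, 1578 and 992 (-0.62 ± 0.17 or -0.45 ± 0.15, adjusted p = 0.219 or 0.289). Both had ND13 below the mutant on every array. Mycn read 4537, 4397 and 6598 against 3322, 3351 and 4000.4 and 8754, 8828 and 12180.0 in the control, so that both fusions were below the control and the mutant further (0.52 ± 0.14 or 0.62 ± 0.13, adjusted p = 0.206 or 0.0997). Mecom, also named Evi1, overlapped (111, 52.4 and 88.7 against 197, 69.4 and 150.2). Myeloid factors had 2 of 16 higher, Hlx and Mitf (407, 281 and 263 against 194, 191 and 129.6, log2 fold change 0.88 ± 0.27 or 0.95 ± 0.30, adjusted p = 0.270 or 0.278), and 0 lower. Spi1, the myeloid master factor PU.1, read 1054, 784 and 662 and 925, 127 and 538, and the log2 fold change of 1.04 ± 0.48 was 0.21 ± 0.22 without ND13(N51S) replicate 2, the one low array.

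Surface proteins of stem cells were split evenly in sign, 10 of 20 being positive. Of these 5 were higher and 1 lower, 0 were called with all arrays and 2 without ND13(N51S) replicate 2 (Ptprf and Calcrl), and the median was -0.02. Adgrl4, an adhesion receptor of endothelium, read 2779.7, 3113 and 3253 against 2386, 1844 and 990.5 (0.90 ± 0.24 or 0.99 ± 0.26, adjusted p = 0.207 or 0.179). Flt3, a receptor tyrosine kinase mutated in leukemia, read 1743, 1235 and 1556 with ND13, 972, 524 and 521 with ND13(N51S), 329, 983 and 637 in the control and 1917, 1363 and 1197 with NA10. Its ND13 arrays lay above those of the mutant and the control (1.22 ± 0.37 or 1.01 ± 0.40, adjusted p = 0.266 or 0.369). Cytokine receptors had 2 of 18 higher and 1 lower. Csf2rb, the shared beta chain of the IL-3 and GM-CSF receptors, read 327, 353 and 453 against 200.1, 207 and 295 (0.70 ± 0.32 or 0.78 ± 0.35, adjusted p = 0.436 or 0.446), and Il6ra, the IL-6 receptor, read 157, 191 and 98.01 against 257, 231 and 283 (-0.84 ± 0.29 or -1.01 ± 0.32, adjusted p = 0.321 or 0.268). Of 19 chemokine receptors and leukocyte integrins the 1 higher was Ccr1 and the 1 lower was the integrin Itga4 (77.96, 72.4 and 98.2 against 169, 201 and 133, log2 fold change -1.01 ± 0.33 or -0.78 ± 0.37, adjusted p = 0.297 or 0.464).

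Signalling genes gave small groups of differences. Of 28 immediate early and feedback genes 6 were higher and 2 lower, 0 were called and the median was 0.23. Socs2, a feedback inhibitor of STAT5 signalling, read 2592, 2662 and 2801 with ND13, 961, 824 and 2014 with ND13(N51S) and 933, 1488 and 2049 in the control, with the ND13 arrays in a narrow band above both (1.20 ± 0.22 or 0.97 ± 0.20, adjusted p = 0.0726 or 0.0903). Jund, a member of the AP-1 family, read 2934, 1936 and 1673 against 954, 1127 and 1117 and 1239, 1062 and 1096 in the control (0.99 ± 0.19 or 1.05 ± 0.20, adjusted p = 0.0842 or 0.0696), and Ier3, an early response gene of cell survival, read 7269, 6400.0 and 3951 against 2749, 2892 and 3550.2 (0.90 ± 0.20 or 0.83 ± 0.22, adjusted p = 0.133 or 0.183). Jun read 707, 542 and 542 and 476, 443 and 886, groups that overlapped and that both lay above the control (170.3, 134 and 199), and the log2 fold change of 0.05 ± 0.24 turned sign without ND13(N51S) replicate 2 (-0.06 ± 0.26). Of 23 Notch pathway genes 2 were higher and 0 lower, and the median was 0.07. The 2 were Dlk1 and Nrarp, a target and inhibitor of Notch (632, 859.5 and 876 against 483, 542 and 501, log2 fold change 0.62 ± 0.18 or 0.57 ± 0.18, adjusted p = 0.229 or 0.268).

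Interferon-stimulated genes had 6 of 26 higher and 0 lower, 1 called (Ifitm2) and a median of 0.09. Oas2, a sensor of double-stranded RNA, read 377, 203 and 259 against 168, 34.5 and 186 and 709, 159 and 322 in the control, and the difference of 1.40 ± 0.47 was 0.85 ± 0.43 without ND13(N51S) replicate 2. Cxcl10 read 118, 152 and 64.5 against 66.2, 18.1 and 11.8, dim values with wide error (2.12 ± 0.73 or 2.22 ± 0.83, adjusted p = 0.322 or 0.344), and GFP control replicate 1 was the highest array for both genes. Of 8 genes of MHC class II presentation 2 were higher. H2-Oa, a modulator of peptide loading, read 496, 539.7 and 475 against 321, 214 and 165 (1.16 ± 0.25 or 1.02 ± 0.26, adjusted p = 0.111 or 0.160). Ahrr, the repressor of the aryl hydrocarbon receptor, was the 1 higher gene of 8 in its pathway (488, 367 and 436 against 195, 204 and 159, log2 fold change 1.21 ± 0.27 or 1.32 ± 0.29, adjusted p = 0.130 or 0.111).

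Cell cycle, survival and housekeeping lists gave few members past the unadjusted threshold and 0 calls. In DNA replication it was 0 of 25 and in mitosis 1 of 23. Of 16 D cyclins and CDK inhibitors 1 was higher, Cables1, which links cyclin-dependent kinases to other kinases (954, 1197 and 919 against 389, 487 and 457, log2 fold change 1.20 ± 0.25 or 1.20 ± 0.28, adjusted p = 0.109 or 0.125), and 2 were lower, among them cyclin D1, Ccnd1 (369, 393 and 240.5 against 578, 1084 and 389.9, log2 fold change -0.94 ± 0.21 or -0.72 ± 0.20, adjusted p = 0.139 or 0.199). Of 19 p53 targets 1 was higher, the stress-induced Sesn2 (345, 198 and 219 against 101, 77.4 and 135, log2 fold change 1.27 ± 0.27 or 1.19 ± 0.30, adjusted p = 0.113 or 0.161), and 3 lower. Of 13 Bcl2 family genes the 1 higher was Bcl2l11, the death promoter Bim (1845, 1769 and 1317 against 1372, 1029.9 and 664, log2 fold change 0.73 ± 0.18 or 0.68 ± 0.19, adjusted p = 0.179 or 0.203). In glycolysis and hypoxia 0 of 22, in ribosome biogenesis 0 of 21, in cholesterol synthesis 0 of 18, in nucleoporins and nuclear transport 0 of 21 and in CBP/p300, MLL and Polycomb regulators 0 of 19 passed it. Lysosomal proteins had 2 of 24 higher, stress genes 3 of 23 higher and 1 lower, annexins 1 of 8 higher and TGF-beta pathway genes 1 of 21 higher and 1 lower.

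A panel of genes was measured by qRT-PCR in the study. Its qRT-PCR values were higher with ND13 than with the mutant for each panel gene, whereas Meis1 and Mecom (Evi1) had the other sign here. For Jun it placed the mutant near the GFP control and only ND13 well above it, unlike these arrays. Of the 15 panel genes 14 had a probe set on these arrays. There 6 were higher and 1 lower, 0 were called with all arrays and 3 without ND13(N51S) replicate 2 (Hoxa7, Pbx3 and Ptprf), and the median was 0.44. Anxa1, annexin A1, read 6513, 5067 and 5531 against 4068, 5186 and 2833 (0.54 ± 0.20 or 0.73 ± 0.19), and Tgfbi read 2599, 1315 and 1209.7 against 1862, 1151 and 1044 (0.30 ± 0.17 or 0.31 ± 0.18). Pbx2 read 242, 274 and 236 against 306, 156 and 251, groups that overlapped (0.13 ± 0.25 or -0.16 ± 0.22). The study's list of genes raised by ND13 and NA10 but not by the mutant held 74 genes, of which 71 were measured. It was chosen on these same samples, so its direction is no independent evidence. Of these, 70 had a positive log2 fold change, 35 were higher and 0 lower at the unadjusted threshold (40 and 0 without ND13(N51S) replicate 2), 1 was called (Malat1), 6 were called without that array (Malat1, Pbx3, Calcrl, Ptprf, Hoxa7 and Tmem71), and the median was 0.65. Of the 10 named genes called higher here, Malat1 was the 1 on that list. This match is by gene name only, since the list names Malat1 by another sequence than that of the called probe sets. At the called probe sets, 1418189_s_at and 1418188_a_at, ND13 overlapped the GFP control and the mutant lay below it. At 1452378_at and 1427285_s_at, which carry that other sequence, Malat1 was not called (adjusted p = 0.403 and 0.576). The called probe set without a gene, 1416325_at, could not be matched to the list by name. Crisp1, which heads the list, had no probe set named for it here, so the overlap may be larger.

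Without ND13(N51S) replicate 2 the counts of higher and lower members moved by at most 2 in each direction in the lists and marker sets above, other than the study's own list. The HoxB counts became 0 and 3, those of the stem cell transcription factors 2 and 0, those of the interferon-stimulated genes 4 and 0 and those of the fibroblast markers 1 and 5.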

How the data were processed

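RNA of sorted marrow cells was amplified and hybridised to Affymetrix mouse arrays, 3 for each of 4 conditions. The authors deposited MAS5 signals, an intensity on a linear scale that they scaled to a common trimmed mean. MAS5 subtracts mismatch probes, so dim values vary widely on the log2 scale. Of 22690 probe sets 64 control ones were left out and 22626 were tested. Of those in the platform annotation 20380 had 1 gene, 691 several and 1555 none, and only the first were named. Arrays give no count depth, and the 3 arrays per group limit the precision (median SE 0.369).

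Log2 signals were fitted with limma 3.58.1 in R 4.3.3 (lmFit with the groups and the replicate number, eBayes with trend and robust, Benjamini-Hochberg adjustment over all probe sets). Tables and figures were made with Python 3.11.15, pandas 2.3.3 and matplotlib 3.10.9. The replicate number was used as a block, although the study does not say that arrays of 1 number share an experiment. Between ND13 and ND13(N51S) arrays that share a number, residuals had correlations of 0.078 to 0.121 over all probe sets, against -0.068 to -0.006 for different numbers, and of 0.199 to 0.415 against -0.290 to 0.033 over probe sets with a mean above the median. These residuals are deviations from the mean of each group, so positive values for shared numbers bring negative ones for different numbers. The contrast is therefore no second piece of evidence for the pairing. The labels do not say whether experiments used separate animals, so p-values measure the spread between these samples. The fit was also tested on simulated data with known changes and normal errors of the fitted spread. It recovered 3% of 1.5-fold, 20.4% of 2-fold, 43.6% of 4-fold and 63.4% of 8-fold changes, with 3.1 wrong calls per simulated table. A list with 0 calls can therefore still hold differences of these sizes. The number of wrong calls depends on how many changes were put in, so it cannot be set against the calls above. All arrays had the same spread in the simulation, whereas the fit with array weights gave ND13(N51S) replicate 2 the lowest weight (0.24).

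Named were the called genes, the list members with the smallest p, the genes the study measured by qRT-PCR, Nup98, Hoxd13 and Hoxa10. Genes called only without ND13(N51S) replicate 2, other probe sets of named genes and the TATA and CRE motifs were added after their values were seen. Members and lists were chosen with earlier results of these data known. A bound ("at least") sets the mean of the bright group against the background of the dim one.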

Additional observations from a re-analysis of the deposited data

How the results depend on the processing

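With all arrays and the replicate block 14 probe sets were called higher and 4 lower, and 942 and 976 passed the unadjusted threshold. Without the replicate block (pairing by replicate number) 3 and 0 were called. Without both the block and ND13(N51S) replicate 2 it was 1 and 0, with 574 higher at the unadjusted threshold. A fit of the 6 arrays of the comparison alone gave 5 and 0, and without ND13(N51S) replicate 2 it gave 10 and 2. Fits that left out 1 array each gave 3 to 91 higher and 0 to 8 lower calls, and 648 to 1501 higher and 867 to 1077 lower at the unadjusted threshold. Quantile normalisation gave 9 lower calls, a pseudocount of 32 gave 27 and 13, and testing only probe sets above the median gave 11 lower calls with 580 and 333 at the unadjusted threshold, where fewer probe sets were tested. Without trend and robust estimation 3 and 0 were called. The methods' t-test was taken as Welch's on the log2 MAS5 signals of the same 3 arrays against 3, without the pairing. It gave 231 and 444 at their threshold and 0 and 0 after Benjamini-Hochberg adjustment. The study ran its test on GC-RMA values, so this is no rerun of it. The cause of the other shifts was not tested.

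Over the called probe sets and the ones that stand for the other genes described, Pbx2 apart, the sign turned in 4, none of them called. Of further probe sets 1434697_at of Ddx6, 1452186_at of Rbm5, 1420841_at of Ptprf, 1451546_s_at of Tmem40 and 1418893_at of Pbx2 turned without ND13(N51S) replicate 2. Hoxd13 went from 0.20 to -0.0296 with the pseudocount, -0.11 without both the block and ND13(N51S) replicate 2 and -0.15 in the 2-group fit without that array, and ranged from -0.37 to 1.09 over the fits without 1 array each. Jun went from 0.05 to -0.00361 with quantile normalisation, -0.0455 with array weights, -0.13 without both the block and that array and -0.0688 in the 2-group fit without it, and ranged from -0.15 to 0.31 without 1 array. Hoxa10 went from -0.20 ± 0.44 (SE) to 0.0821 with array weights, 0.10 without both the block and that array and 0.0179 in the 2-group fit without it, and ranged from -0.66 to 0.13 without 1 array. Nup98 ranged from -0.0953 to 0.36 without 1 array. Each called probe set kept its sign in every alternative that tested it. Dim probe sets limit the rest, since a signal near background has a log2 value with a wide error.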
